A study of Mus musculus with 8 samples.

Results

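The cAMP and protein kinase A genes described here are 8 genes whose products make or break down cyclic AMP or form the kinase that it switches on. They were taken by symbol from a table of 23983 genes, by a rule that uses no measured value. The genes are the adenylyl cyclases Adcy10 and Adcy3, the catalytic subunits Prkaca and Prkacb, the regulatory subunits Prkar1a, Prkar2a and Prkar2b, and the phosphodiesterase Pde4a. Expression was read from RNA-seq of testis pieces of C57BL/6J mice on d12, d16 or d24 after birth, and of adults, whose age in days the labels do not give. The 4 stages have 1 library each, and the number of animals behind a library is not given in the sources used here. These libraries carry no transgene or treatment by their labels. The study made them to find genes and genomic sites that become active in haploid germ cells, and its 4 H3K27Ac ChIP-seq samples are not analysed here. Without replicates the spread between animals is unknown, and no difference between stages was tested.

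Cyclic AMP switches on protein kinase A by binding its regulatory subunits, which then let go of the catalytic subunits. In sperm, the soluble adenylyl cyclase Adcy10 is driven by bicarbonate and calcium, and its cAMP is needed for motility and for capacitation, the change that makes sperm able to fertilise. Other adenylyl cyclases, such as Adcy3, sit in the membrane and answer to G proteins. Regulatory subunits of type II are held in place by A-kinase anchoring proteins, which are abundant in the sperm tail. Prkaca has an alternative first exon that gives a form of the catalytic subunit found in sperm. Pde4a hydrolyses cAMP and so ends the signal.

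Values are FPKM as deposited, fragments scaled to transcript length and by a factor per library, so levels of different genes may be set side by side per length. The number of fragments behind a value was recovered from the table, and the ranges in parentheses after a value of 1 gene are exact 95% Poisson intervals. Ranges of ratios and shares rest on the fragments of both parts, and are approximate where several genes are summed. They cover counting error only and not the difference between animals. For genes with several transcripts the fragments are a lower number, because the shortest transcript was assumed, and their intervals are then wider. One fragment on a transcript of 1 kb was worth 0.0799 FPKM at d12, 0.0800 at d16, 0.0456 at d24 then 0.112 in the adult. By estimate the genes together held from 9320914 fragments at d12 to 24952431 at d24. These totals take the mean length of a gene's curated transcripts, not the shortest. The adult library held 12728746, more than at d12, yet a fragment was worth more there. The scaling between libraries therefore did not follow the fragments on genes alone. All 8 genes had a mean of at least 1 FPKM over the 4 libraries, as did 13901 genes in all, and changes are read against those 13901.

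The promoters of the genes that were at least 2-fold higher in adult than in d12 testis are shown because these genes carry the increases with age, which were steepest from d16 to d24 for Adcy10, Prkaca and Pde4a and from d24 to adult for Prkar2a. Each line holds the 100 bases before a RefSeq transcript start (GRCm38.p6, the build used for mapping), read 5′ to 3′ on the strand of the gene. Capitals mark a CCAAT box (CCAAT) or the core of a cAMP response element (TGACG), on either strand, so the core may read CGTCA. The windows of Adcy10, of Prkaca start 2 and of Pde4a starts 2 and 3 lie inside the annotated span of their gene, and no printed window overlaps an exon of a curated transcript of its gene. In Prkar2a the core runs across the start, and its last base is the first base transcribed.
Adcy10 (chr1:165485083-165485182, plus strand): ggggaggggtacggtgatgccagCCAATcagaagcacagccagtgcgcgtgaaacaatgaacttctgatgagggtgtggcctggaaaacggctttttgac
Prkaca start 1 (chr8:83972878-83972977, plus strand): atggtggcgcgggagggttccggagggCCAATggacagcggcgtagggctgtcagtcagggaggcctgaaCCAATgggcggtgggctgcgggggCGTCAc
Prkaca start 2 (chr8:83976783-83976882, plus strand): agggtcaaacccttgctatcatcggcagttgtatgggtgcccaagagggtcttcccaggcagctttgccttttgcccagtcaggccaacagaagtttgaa
Prkar2a (chr9:108692043-108692142, plus strand): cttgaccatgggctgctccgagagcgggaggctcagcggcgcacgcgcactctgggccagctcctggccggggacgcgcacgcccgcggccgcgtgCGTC
Pde4a start 1 (chr9:21165614-21165713, plus strand): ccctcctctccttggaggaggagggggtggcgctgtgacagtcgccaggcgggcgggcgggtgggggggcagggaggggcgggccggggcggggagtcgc
Pde4a start 2 (chr9:21184001-21184100, plus strand): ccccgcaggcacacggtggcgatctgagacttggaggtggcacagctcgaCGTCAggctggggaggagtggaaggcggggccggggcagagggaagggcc
Pde4a start 3 (chr9:21196605-21196704, plus strand): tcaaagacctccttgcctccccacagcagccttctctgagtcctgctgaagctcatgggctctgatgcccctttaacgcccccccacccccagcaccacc

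Over windows from 250 bases before to 50 bases after a start, 20 windows belonged to the 8 genes. Of these, 7 held the core TGACG, or 35% against 20.8% of 32851 promoters of the annotation, and they belonged to 5 of the 8 genes. Windows of 1 gene can overlap, so they are not separate observations. Adcy10 held no core in its window, and Prkaca start 1, Pde4a start 2 and the single Prkar2a start did. The full site TGACGTCA, which contains the core, was found in 2 overlapping windows of Prkar1a and in 1.79% of all promoters. A CCAAT box was found in 5 windows, or 25% against 37.4% of all promoters, and a TATA box (TATAAA) in 1 window, that of Prkacb, against 13.6%. The motifs were chosen after the sequences had been seen, and a match of letters is no measurement of binding.

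Adcy10, on the plus strand of chromosome 1 from 165483518 to 165576778, was the member with the widest range. It had 0.583 FPKM at d12 (0.412 to 0.800, 38 fragments), 2.76 at d16 (2.38 to 3.20, 180 fragments), 44.0 at d24 (42.8 to 45.2, 5030 fragments) and 84.8 in adult testis (82.2 to 87.5, 3939 fragments). No interval overlapped another, and each later stage was higher than the one before. The step from d12 to d16 was 4.75-fold (3.33 to 6.92), that from d16 to d24 was 15.9-fold (13.7 to 18.6) and that from d24 to adult was 1.93-fold (1.85 to 2.01). From d12 to adult the fold was 145.7 (105.9 to 206.1), and it was 62.7 with the libraries scaled to equal FPKM sums, 76.4 with division by the upper quartile and 501.0 with division by Gapdh. The study called a gene specific to d16 when it had under 2 FPKM at d12 and at least 2 at d16, and Adcy10 met this with an interval that lay wholly above 2 at d16. The study also set a limit of 30 FPKM, for a stage it does not name, and Adcy10 was above 30 at d24 and in the adult. Its final list also used a filter on other tissues, not applied here, and left out autosomal genes such as Adcy10.

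Adcy3, on the plus strand of chromosome 12 from 4133116 to 4213525, was the lowest of the 8 genes in adult testis. It had 1.81 FPKM at d12 (1.47 to 2.21, 99 fragments), 1.28 at d16 (1.00 to 1.62, 70 fragments), 0.822 at d24 (0.650 to 1.03, 78 fragments) and 0.774 in adult testis (0.522 to 1.105, 30 fragments). Intervals of neighbouring stages overlapped, and the d12 interval lay above those of d24 and adult testis. As a ratio, the d16 value was 1.41-fold lower than that at d12 (1.03 to 1.95). The d24 value was 1.56-fold lower than that at d16 (1.11 to 2.18). With division by Gapdh both steps were higher, at 1.14-fold and 1.43-fold. The adult value was 2.34-fold lower than that at d12 (1.54 to 3.65) as deposited, but 1.47-fold higher with division by Gapdh. The ratio of Adcy10 to Adcy3 within a library does not depend on the scaling. It was 0.321 at d12 (0.215 to 0.471), 2.16 at d16 (1.63 to 2.88), 53.5 at d24 (42.8 to 67.8) and 109.7 in adult testis (76.7 to 162.7). Against the sum of Adcy1 to Adcy9, which includes Adcy3, the ratio was 0.0223 at d12, 0.131 at d16, 3.35 at d24 then 8.01 in the adult. Thus the soluble cyclase had less FPKM than the membrane cyclases together at d12 and d16, and more at d24 and in the adult.

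**Figure D1:**
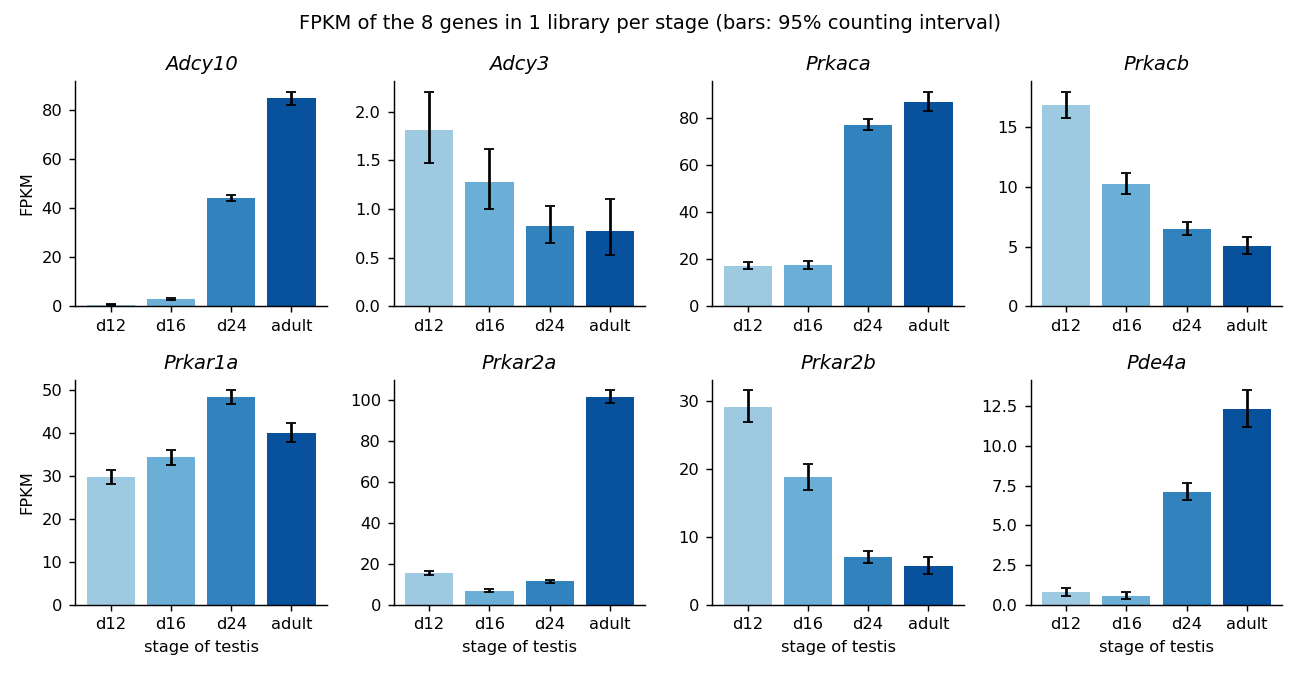
FPKM of the 8 genes in the d12, d16, d24 and adult libraries, with 1 library per stage and the exact 95% counting interval of each value. Adcy10 goes from 0.583 to 84.8 and Prkar2a from 15.3 to 101.8, with a low of 6.93 at d16, while Prkacb and Prkar2b are highest at d12 in the values as deposited (by Gapdh, Prkacb is 1.03-fold higher in the adult).

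The catalytic subunit Prkaca, on the plus strand of chromosome 8 from 83972978 to 83996444, was higher at d24 and in the adult than at both earlier stages. It had 17.3 FPKM at d12 (15.8 to 18.9, 486 fragments), 17.5 at d16 (15.97 to 19.1, 491 fragments), 77.3 at d24 (74.8 to 79.7, 3814 fragments) and 87.1 in adult testis (83.1 to 91.3, 1746 fragments). The d12 and d16 intervals overlapped, and those of d24 and adult testis did not. With division by Gapdh the d16 level was 1.64-fold that of d12, so the likeness of the first 2 stages depends on the scaling. Between d16 and d24 Prkaca was 4.42-fold higher at the later stage (4.02 to 4.86). Its fold from d24 to adult was 1.13 as deposited (1.07 to 1.19) but 0.809 with rescaling to the same sum and 0.944 with the upper quartile, so the direction of that step depends on the scaling. The fold from d12 to adult was 5.05 (4.56 to 5.59), and 2.17, 2.65 and 17.4 under the sum, upper quartile and Gapdh scalings.

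The 2 curated transcripts of Prkaca start 3905 bp apart, and each has a first exon of its own, from 83972978 to 83973232 (255 bp) and from 83976883 to 83977094 (212 bp). They share the remaining exons, and the bases found in no other transcript make up 11.1% of one and 9.43% of the other. The table gives 1 value for the gene, so the share of the form with either first exon could not be read. The promoters of the 2 starts differ in composition, with 69.7% G and C in the window of start 1 and 51.3% in that of start 2. Pde4a likewise has 3 curated transcripts, each with its own first exon, behind 1 value.

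Prkacb, the other catalytic subunit, lies on the minus strand of chromosome 3 from 146729579 to 146812946. It had 16.8 FPKM at d12 (15.7 to 18.0, 884 fragments), 10.3 at d16 (9.42 to 11.2, 539 fragments), 6.48 at d24 (5.98 to 7.03, 597 fragments) and 5.03 in adult testis (4.33 to 5.80, 188 fragments). As deposited, each stage was lower than the one before, with no overlap of intervals, but with division by Gapdh the step from d16 to d24 was 1.41-fold higher. The adult value was 3.35-fold lower than that at d12 (2.86 to 3.94) as deposited, and 1.03-fold higher with division by Gapdh. At d12 Prkaca and Prkacb did not differ beyond their intervals, and Prkaca made up 50.6% of their summed FPKM (47.8 to 53.4, exact binomial interval). That share was 63.0% at d16 (60.0 to 65.8), 92.3% at d24 (91.6 to 92.9) and 94.5% in adult testis (93.7 to 95.3). With Prkx, a related catalytic subunit, in the sum, it was 44.2%, 55.5%, 88.8% and 90.8%.

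Of the regulatory subunits, Prkar2a showed the latest change. It lies on the plus strand of chromosome 9 from 108692143 to 108750444 and has 1 curated transcript. Its product is the type II regulatory subunit alpha, which anchoring proteins of the sperm tail bind. Prkar2a had 15.3 FPKM at d12 (14.4 to 16.3, 953 fragments), 6.93 at d16 (6.29 to 7.62, 431 fragments), 11.5 at d24 (10.8 to 12.1, 1251 fragments) and 101.8 in adult testis (98.9 to 104.9, 4514 fragments). The level was lowest at d16 and highest in the adult, with no overlap between any of the 4 intervals. At d24 it was still under the d12 level as deposited, but above it with division by Gapdh. From d12 to d16 it was 2.21-fold lower (1.97 to 2.48), a change above that of only 2.58% of the tested genes, and with division by Gapdh it was at 0.731 of the d12 value, within 2-fold. From d24 to adult it was 8.89-fold higher (8.35 to 9.47), a change above that of 99.5% of the tested genes, and 6.37, 7.44 and 8.48 under the sum, upper quartile and Gapdh scalings. No other member passed 2-fold over that last step.

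Prkar2b encodes the beta form of the type II regulatory subunit and lies on the minus strand of chromosome 12 from 31958450 to 32061648. It had 29.2 FPKM at d12 (26.9 to 31.5, 622 fragments), 18.7 at d16 (17.0 to 20.7, 399 fragments), 7.01 at d24 (6.18 to 7.91, 262 fragments) and 5.68 in adult testis (4.54 to 7.01, 86 fragments). The first 3 intervals did not overlap, and those of d24 and adult testis did. Its adult level was 5.14-fold below that at d12 (4.09 to 6.51), and with division by Gapdh it was still lower, at 0.670 of the d12 value. Over the step from d16 to d24 it was 2.68-fold lower (2.28 to 3.14) as deposited, but within 2-fold with division by Gapdh, at 0.834 of the d16 value. The step from d12 to d16 was 1.55-fold lower as deposited (1.37 to 1.77) and 1.04-fold higher with Gapdh.

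Prkar1a, the type I regulatory subunit alpha that many tissues use, varied least in the values as deposited. It lies on the plus strand of chromosome 11 from 109649023 to 109669663. It had 29.7 FPKM at d12 (28.0 to 31.4, 1223 fragments), 34.3 at d16 (32.5 to 36.1, 1412 fragments), 48.2 at d24 (46.7 to 49.9, 3490 fragments) and 40.0 in adult testis (37.8 to 42.4, 1176 fragments). Its highest value was 1.63 times its lowest. From d12 to adult its fold was 1.35 as deposited (1.25 to 1.46) and 4.64 with division by Gapdh, but 0.581 with rescaling to the same sum and 0.708 with the upper quartile, so no direction is given for it.

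Within a library, the shares of the 3 regulatory subunits changed over in sequence. Prkar1a and Prkar2b had about the same share at d12, 40.0% (38.2 to 41.8) and 39.3%, and Prkar2a had 20.7% (19.4 to 22.0). Prkar1a had 57.2% at d16 (55.0 to 59.3) and 72.3% at d24 (71.1 to 73.5). In adult testis Prkar2a had 69.0% (67.7 to 70.4), Prkar1a 27.1% (25.9 to 28.4) and Prkar2b 3.85% (3.10 to 4.72). The leading regulatory subunit by FPKM was therefore Prkar1a at d24 and Prkar2a in the adult, with no overlap of intervals in either library. The ratio of Prkar2a to Prkar2b was 0.525 at d12, 0.370 at d16, 1.64 at d24 (1.43 to 1.88) and 17.9 in adult testis (14.5 to 22.5). These shares do not depend on the scaling of the libraries.

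**Figure D2:**
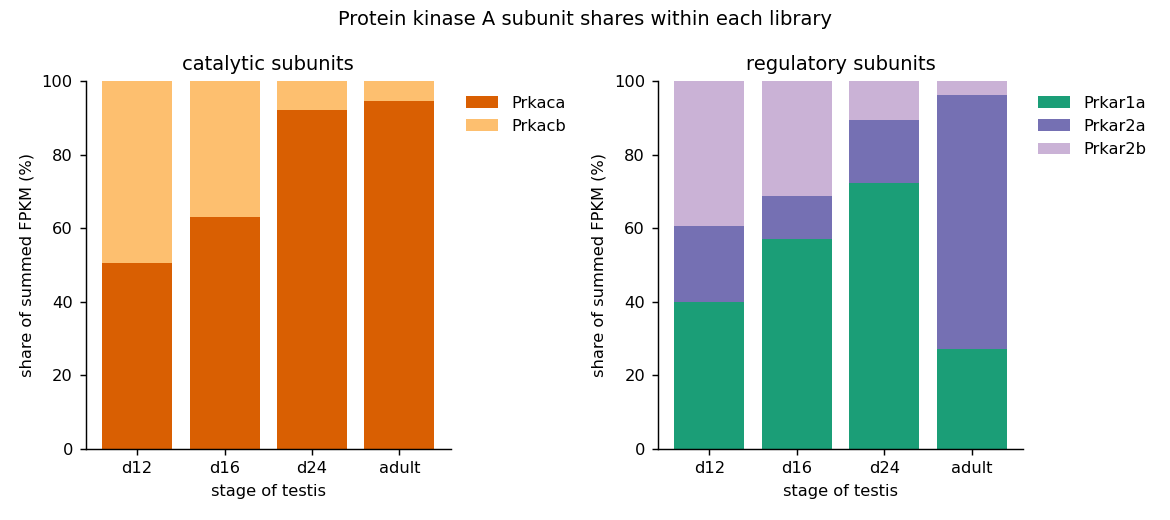
Shares of summed FPKM in percent for the catalytic subunits (Prkaca and Prkacb) and the regulatory subunits (Prkar1a, Prkar2a and Prkar2b) in each of the 4 libraries. Prkaca takes 94.5% of the catalytic sum in adult testis, and Prkar2a goes from 17.2% of the regulatory sum at d24 to 69.0% in the adult.

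Prkaca already led the catalytic subunits at d24, while Prkar2a led the regulatory subunits only in the adult. The 3 regulatory subunits summed to 74.1 FPKM at d12, 60.0 at d16, 66.7 at d24 then 147.5 in the adult, and the 2 catalytic subunits to 34.1, 27.8, 83.7 and 92.1. Regulatory FPKM was 2.17 times catalytic FPKM at d12 (2.04 to 2.32), 2.16 times at d16 (2.01 to 2.33), 0.797 times at d24 (0.765 to 0.830) and 1.60 times in the adult (1.52 to 1.69). Only the d24 library had more catalytic than regulatory FPKM. With Prkar1b and Prkx added, an alternative chosen after these values were seen, the ratios were 1.92, 1.92, 0.776 and 1.55. These are ratios of RNA, and protein was not measured.

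Pde4a, on the plus strand of chromosome 9 from 21165700 to 21213248, had few fragments at d12 and d16. It had 0.801 FPKM at d12 (0.578 to 1.08, 42 fragments), 0.550 at d16 (0.368 to 0.790, 29 fragments), 7.13 at d24 (6.59 to 7.70, 648 fragments) and 12.3 in adult testis (11.2 to 13.5, 455 fragments). The first 2 stages overlapped, and both later stages stood above them and apart from each other. The step from d16 to d24 was 13.0-fold (8.93 to 19.5) and that from d24 to adult 1.73-fold (1.53 to 1.95). Pde4a met the rule of the study for d24, under 2 FPKM at both earlier stages and at least 2 at d24, and its d24 value was also under the limit of 30 FPKM set there. As an autosomal gene it would not have stayed in the final list of the study. Its fold from d12 to adult was 15.4 (11.2 to 21.6), and 6.62, 8.07 and 52.9 under the other 3 scalings.

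The order of the 8 levels differed between the youngest and the oldest testis. At d12 Prkar1a and Prkar2b stood highest with overlapping intervals. Prkaca, Prkacb and Prkar2a followed, and the intervals of these 3 overlapped pairwise. Adcy3 came next, and Pde4a and Adcy10 overlapped at the bottom. In adult testis Prkar2a stood highest, Prkaca and Adcy10 overlapped below it, and Prkar1a and Pde4a followed without overlap. Prkar2b and Prkacb overlapped, and Adcy3 was lowest. Among all 23983 genes Adcy10 went from rank 13430 at d12 to rank 1625 in the adult, and Prkar2b from rank 2023 to rank 8841.

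Counts of members past 2-fold were read against the same count over all tested genes, on log2(FPKM + 0.1). From d12 to d16, 1 member was higher (Adcy10) and 1 lower (Prkar2a), where 12.6% of tested genes were higher and 3.67% lower. From d16 to d24, 3 members were higher (Adcy10, Prkaca and Pde4a) and 1 lower (Prkar2b), where 27.5% were higher and 8.45% lower. From d24 to adult, 1 was higher (Prkar2a) and 0 lower, where 11.4% were higher and 2.2% lower. From d12 to adult, 4 were higher and 3 lower, where 35.7% were higher and 23.1% lower. As deposited, each of these counts lay within 1.15 genes of the number that the background share would give for 8 genes. Under the other scalings the widest gap was from d12 to adult after sum rescaling, with 4 members higher against 1.86 from the background of 23.2%. The median log2 change of the members was -0.47, 0.60, 0.05 and 1.38 over these 4 comparisons, beside 0, 0.13, -0.02 and 0.20 for all tested genes. With 1 library a stage these are descriptions of the libraries.

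The scaling between libraries matters for the level of every change. The FPKM values summed to 283580 at d12, 307964 at d16, 472726 at d24 then 659202 in the adult, and Gapdh had 68.9, 42.6, 19.1 and 20.04 FPKM. The median gene changed by 0.20 on the log2 scale from d12 to adult as deposited, by -1.01 with rescaling to the same sum, by -0.72 with the upper quartile and by 1.96 with Gapdh. Relative to the median gene as deposited, Adcy10 differed by 6.76, Pde4a by 3.58, Prkar2a by 2.52, Prkaca by 2.13, Prkar1a by 0.23, Adcy3 by -1.33, Prkacb by -1.92 and Prkar2b by -2.54. Of the genes past 2-fold from d12 to adult, 60.7% were higher as deposited, 31.7% after sum rescaling, 36.8% by upper quartile and 97.4% by Gapdh. The same shares were 77.5%, 66.2%, 65.5% and 97.1% from d12 to d16, 76.5%, 38.8%, 43.4% and 99.4% from d16 to d24, and 83.8%, 38.2%, 66.5% and 78.7% from d24 to adult.

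Other genes of the pathway were read from lists, with changes from d12 to adult past 2-fold in either direction. Every list count under another scaling is to be read against all tested genes under that scaling. Of those genes, 23.2% were higher and 50.1% lower after sum rescaling, and 25.5% and 43.8% by upper quartile. By Gapdh 70.9% were higher and 1.91% lower. Of 8 other adenylyl cyclases, 5 had a mean of at least 1 FPKM, and of these 0 were higher and 2 lower, with a median log2 change of -0.69, where 35.7% of all tested genes were higher and 23.1% lower (0 higher and 5 lower after sum rescaling or by upper quartile, 3 and 0 by Gapdh). The lower ones were Adcy7, from 9.86 to 1.98 FPKM, and Adcy9, from 7.74 to 3.33. Of 5 other subunits and inhibitors of protein kinase A, 4 passed that minimum, 2 were higher and 1 lower, with a median of 1.04 (2 and 2 after sum rescaling or by upper quartile, 3 and 0 by Gapdh). Pkib, an inhibitor that binds the catalytic subunit, had 0.193, 0.0915, 9.42 and 54.4 FPKM from d12 to adult, and so went with the late stages. Its relative Pkig had 22.1, 45.5, 111.6 and 122.5 FPKM, while Pkia was lower in the adult than at d12, at 1.71 against 7.07.

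Among 15 other cAMP phosphodiesterases, 11 passed the minimum, 6 were higher and 2 lower, with a median of 1.09 (5 higher and 3 lower after sum rescaling or by upper quartile, 9 and 0 by Gapdh). Of all tested genes 35.7% were higher and 23.1% lower as deposited. Pde1a, a calmodulin-dependent enzyme, had 8.68, 6.40, 113.5 and 376.8 FPKM at the 4 stages. Pde1c was already at 23.2 FPKM at d16, from 1.85 at d12, and reached 82.6 and 99.4. Pde8a had 12.2, 30.9, 126.3 and 127.9 FPKM. In adult testis each of these 3 had more FPKM than Pde4a.

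Anchoring proteins and docking proteins that resemble the type II regulatory subunit had the highest list median, 2.83, with 17 of 18 past the minimum, 10 higher and 2 lower (9 and 6 after sum rescaling, 10 and 5 by upper quartile, 14 and 0 by Gapdh). The shares of all tested genes were 35.7% higher and 23.1% lower as deposited. Akap3, of the sperm fibrous sheath, had 0.56, 0.63, 117.6 and 388.7 FPKM. Akap1, which binds regulatory subunits at mitochondria, went from 7.85 to 257.6, and the docking protein Ropn1l from 4.83 to 872.5. The 2 lower genes were Akap5, from 5.83 to 0.94 FPKM, and Akap13, from 25.6 to 6.19.

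Of 7 genes that act upstream of cAMP, 4 passed the minimum, 1 was higher and 2 were lower, with a median of -0.51 (the same counts after sum rescaling or by upper quartile, 2 and 0 by Gapdh). For this list and the next, the shares of all tested genes were 35.7% higher and 23.1% lower as deposited. Slc9c1, the sperm sodium and proton exchanger, had 0.0206, 6.17, 76.6 and 89.1 FPKM, and the follicle-stimulating hormone receptor gene Fshr went from 4.36 to 1.19. All 10 other effectors and transcription factors passed, with 3 higher, 2 lower and a median of 0.56 (3 and 4 after sum rescaling or by upper quartile, 7 and 0 by Gapdh). Crem, a cAMP-responsive regulator of spermatid genes, had 5.61, 20.5, 84.0 and 130.4 FPKM. Creb1 was lower in the adult, at 7.45 against 16.5. Over the 6 lists the median of all tested genes stays 0.20 for comparison, and no list was tested. Of the genes named here as lower in the adult, Adcy9 and Creb1 were higher there with division by Gapdh.

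**Figure D3:**
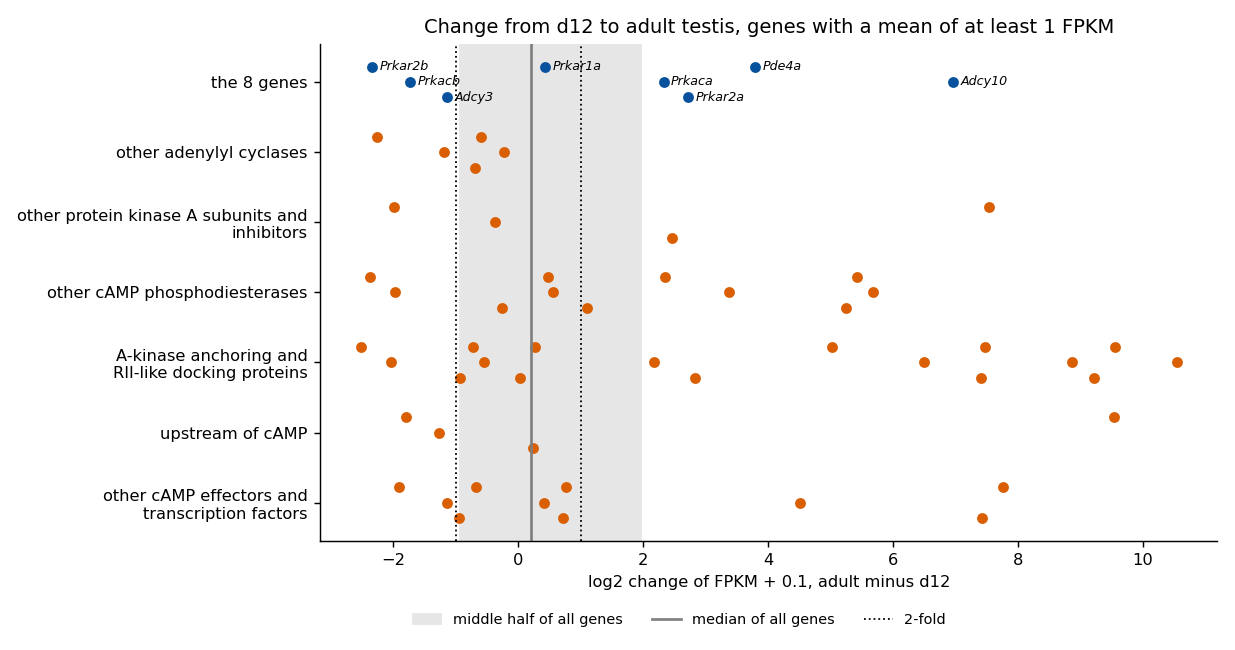
Change from d12 to adult testis on log2(FPKM + 0.1), with a point per gene with a mean of at least 1 FPKM, for the 8 genes and the 6 lists. The shaded band spans the middle 50% of all tested genes, the grey line is their median of 0.20, dotted lines mark 2-fold, and the anchoring and docking list reaches furthest to the right.

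The marker sums of testis cell types differed between the stages, as these genes did. In bulk tissue, fewer cells of a type and less RNA per cell cannot be told apart. The 6 markers of pachytene spermatocytes summed to 57.6, 859.3, 3895 and 4823 FPKM at the 4 stages, those of round spermatids to 2.99, 3.89, 454.3 and 1201, and those of elongating spermatids to 12.9, 4.41, 2285 and 26017. All 6 genes of each of these 3 lists were at least 2-fold higher in adult than in d12 testis, where 35.7% of all tested genes were. Of the round spermatid markers, Acrv1, Catsper3 and Spaca7 were listed at 0 at d16. Of the members at least 2-fold higher in adult than in d12 testis, Prkaca at d24 was at 88.7% of its adult value as deposited. Pde4a was at 57.8%, Adcy10 at 51.9% and Prkar2a at 11.3%. The pachytene sum was then at 80.8%, the round spermatid sum at 37.8% and the elongating spermatid sum at 8.78%. At d12 Prkar2a was at 15.0% of its adult value, when the elongating spermatid sum was at 0.0495%. Whether any member follows a cell type was not tested.

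The marker sums of spermatogonia, Sertoli cells and endothelial cells were lower in the adult than at d12 as deposited, and those of the other lists were not. The sum of early meiotic spermatocytes was 609.7, 1224, 835.6 and 785.2 FPKM at the 4 stages. Its 6 markers did not move together. From d12 to adult 1 was at least 2-fold higher (Spo11) and 2 lower, where 35.7% and 23.1% of tested genes were. The lower ones were Dmc1, from 45.7 to 12.4 FPKM, and Prdm9, from 15.7 to 6.19. By Gapdh 4 were higher and 0 lower. The spermatogonial sum was 215.3, 122.2, 65.6 and 47.7 FPKM, the Sertoli sum 792.0, 672.6, 460.6 and 491.6, and the endothelial sum 22.1, 15.2, 7.93 and 10.3. As deposited, from d24 to adult the endothelial sum was higher. The Sertoli sum was also higher, but this was carried by Clu, at 456.6 against 419.6, and the other Sertoli markers were lower. The spermatogonial sum was lower at every step (from d16 to d24 it was higher with division by Gapdh). These counts use markers with a mean of at least 1 FPKM, which were 6 spermatogonial, 6 Sertoli and 5 endothelial ones. Of them, 5 spermatogonial, 4 Sertoli and 3 endothelial markers were at least 2-fold lower in the adult, where 23.1% of all tested genes were. By Gapdh these counts were 3, 1 and 0, where 1.91% of tested genes were lower. By Gapdh 1 spermatogonial, 2 Sertoli and 2 endothelial markers were at least 2-fold higher, where 70.9% of tested genes were. The endothelial marker left out, Vwf, had a mean of 0.781 FPKM. It was 2.66-fold higher in the adult than at d12 as deposited, from 0.515 to 1.37 FPKM, and also past 2-fold higher by Gapdh. Amh, a Sertoli marker of young testis, was listed at 0 in the adult. The macrophage sum lay between 28.8 and 36.9 at every stage. The Leydig sum was 131.6, 82.4, 153.4 and 580.7. The myoid sum was 257.5, 210.9, 151.7 and 307.6, but 4 of the 6 myoid markers were at least 2-fold lower in the adult than at d12 as deposited (0 by Gapdh), and its adult value was carried by Actg2, at 225.0 against 9.47. With division by Gapdh the Sertoli and endothelial sums were higher in the adult than at d12, and the spermatogonial sum was lower. What part the makeup had in the changes of the 8 genes was not tested.

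**Figure D4:**
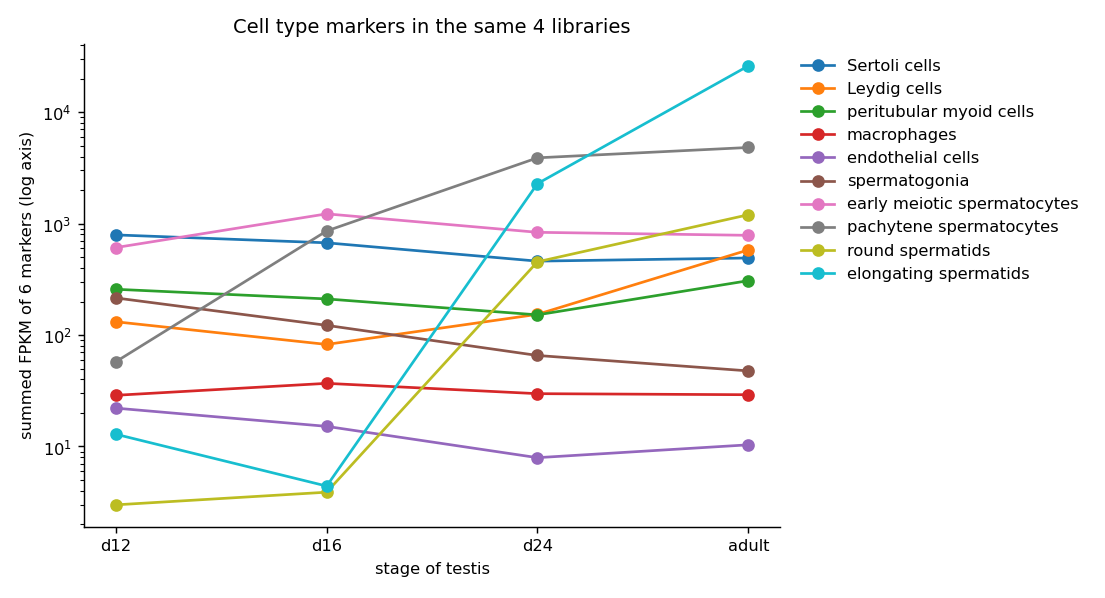
Summed FPKM (log axis) of marker genes of testis cell types in the d12, d16, d24 and adult libraries, with 1 point per library and list. The elongating spermatid sum goes from 12.9 at d12 to 26017 in the adult, and the spermatogonial sum from 215.3 to 47.7.

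For each member the 2 genes with the nearest profile over the 4 libraries were taken from 13900 candidates, by the distance between centred values of log2(FPKM + 0.1). Prkar2a had the fewest near neighbours, with 1 gene within a distance of 0.5. The nearest were Vasp at 0.44, with 5.97, 4.16, 5.66 and 49.9 FPKM, and Mical3 at 0.50, with 9.24, 6.50, 9.28 and 66.2, both low at d16 and high only in the adult. Adcy10 had 25 genes within 0.5, with Tsga13 at 0.19 and 1810020O05Rik at 0.20 the nearest. Pde4a had 28, led by Peli2 at 0.10 and 1700120E14Rik at 0.20, and Prkaca had 172, led by 4921531C22Rik at 0.082 and Chdh at 0.11. Of the members lower with age as deposited, Prkar2b had 607 (Pde8b at 0.067 and Atp2b1 at 0.069), Prkacb 1747 (Fam171a1 at 0.036 and Pbdc1 at 0.042) and Adcy3 2357 (Adora1 at 0.030 and Shroom2 at 0.037). The number within a fixed distance depends on how widely a profile ranges, so it does not give how common a direction is. From d12 to adult, 23.1% of tested genes were at least 2-fold lower and 35.7% higher. Prkar1a had 1729, with Eif2ak1 at 0.021 and Atf1 at 0.030 the nearest. A profile of 4 points can be shared by chance, and likeness was not tested.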

How the data were processed

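Paired-end, strand-specific RNA-seq of testis gave 4 libraries, grouped by stage from their labels. TopHat2 2.1.0 with Bowtie 1.1.2 aligned the reads to GRCm38, and the authors deposited FPKM values from Cuffdiff (Cufflinks 2.2.1). How the libraries were scaled against each other is not given in the sources used here. Whole fragments were recovered from the deposited FPKM of 14604 genes with 1 curated transcript, where 91.9% to 92.7% of low values lay within 0.05 of a whole number. A value of 3 fragments at 1 kb ranged from 0.137 to 0.337 FPKM. Changes are on log2(FPKM + 0.1), for genes averaging at least 1 FPKM over the 4 libraries. Intervals of a ratio of 1 gene to another are exact, conditional on the summed fragments. Where several genes are summed, their fragments were pooled across different lengths, so those intervals are approximate. With 1 library per stage no test was made. Alternatives were a pseudocount of 1 FPKM, no minimum, a 1.5-fold threshold, other scalings and other denominators. Gene names, promoters and positions came from RefSeq of GRCm38.p6, which held promoters for all 8 genes. The genes named are the 8 genes, pathway and marker list genes with large changes, and the 2 nearest profiles of each gene. Members, lists and rules were chosen with earlier results of these data known. Scripts were tested on simulated data and used python 3.11.15, numpy 2.4.6, pandas 2.3.3, scipy 1.17.1 and matplotlib 3.10.9.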

Additional observations from a re-analysis of the deposited data

How the results depend on the processing

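Of 244 values under alternatives, 123 stayed within the counting interval or within 1.5 times a count, and 121 did not. Of the members' log2 changes, 15 turned sign, 7 with division by Gapdh (Adcy3, Prkacb, Prkar2b and Pde4a), 4 by sum and 4 by upper quartile (Prkaca and Prkar1a). Of these 15, 2 were past 2-fold as deposited, the d12 to adult changes of Adcy3, 0.51 with Gapdh, and of Prkacb, 0.038 with Gapdh. Prkar1a from d12 to adult was -0.78 by sum and -0.50 by upper quartile. The causes were not tested, except where the scaling itself shifts every gene or a looser fold or minimum adds genes. The count of the 8 genes at least 2-fold lower from d12 to d16 went from 1 to 0 with Gapdh and to 3 at 1.5-fold. From d16 to d24, 3 higher became 5 with Gapdh, and 1 lower became 3 with rescaling to the same sum, 3 with the upper quartile, 0 with Gapdh and 2 at 1.5-fold. From d24 to adult, 1 higher became 3 at 1.5-fold, and from d12 to adult, 3 lower became 0 with Gapdh. Over all tested genes, 1753 higher from d12 to d16 became 3878 with Gapdh and 2821 at 1.5-fold, and 510 lower became 131 with a pseudocount of 1, 1411 with no minimum, 863 by sum, 833 by upper quartile, 117 by Gapdh and 1864 at 1.5-fold. From d16 to d24, 3824 higher became 8338 with Gapdh, and 1174 lower became 568 with a pseudocount of 1, 1931 with no minimum, 4263 by sum, 3681 by upper quartile, 50 by Gapdh and 3118 at 1.5-fold. From d24 to adult, 1578 higher became 2672 with no minimum, 935 by sum and 2596 at 1.5-fold, and 306 lower became 58 with a pseudocount of 1, 926 with no minimum, 1515 by sum, 594 by upper quartile and 1212 at 1.5-fold. From d12 to adult, 4965 higher became 3226 by sum and 9856 by Gapdh, and 3216 lower became 6966 by sum, 6089 by upper quartile and 265 by Gapdh. The Prkaca share with Prkx was 44.2%, 55.5%, 88.8% and 90.8%, Adcy10 over the summed Adcy1 to Adcy9 was 0.0223, 0.131, 3.35 and 8.01, and the regulatory to catalytic ratio with Prkar1b and Prkx, added after the data were seen, was 1.92 at both d12 and d16. No paired analysis was possible because each stage has 1 library, and no replicate could be left out. Depth limits most the values with under 100 fragments when the shortest transcript is assumed, which are Adcy10 at d12, Pde4a at d12 and d16, Prkar2b in the adult and Adcy3 at every stage. These are lower numbers, most so for Prkar2b, whose curated transcripts run from 1704 to 3364 bp.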
